A study of Mus musculus with 9 samples.

Results

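The transcription factor NRF2, encoded by Nfe2l2, and its antioxidant targets were examined in mouse hippocampus through a set of 10 genes chosen by name: Nfe2l2, its inhibitor Keap1, and the target genes Nqo1, Hmox1, Gclc, Gclm, Txnrd1, Srxn1, Slc7a11 and Gstm1. The set was chosen because flavonols such as quercetin, a plant polyphenol, are reported activators of NRF2. The 10 genes were found among 22173 genes in the table, of which 18798 had values, and all 10 were among the 13062 genes tested. RNA was sequenced from hippocampi of C57BL/6 mice, described in the study's methods as female, in 9 libraries that formed 3 groups of 3. Young controls were aged 8 weeks, and middle-aged controls were aged 10 months. In the study's methods control mice received the solvent, PBS with DMSO, and the young controls are not named separately there. The middle-aged quercetin group was also aged 10 months and received quercetin, with a treatment of 24 days in the labels and tail vein injection every other day in the study's text. For its behaviour tests that text gives a longer course than the labels, so the duration for these libraries is uncertain. The labels name no genetic change and no substrain for any group, and there was no positive control for NRF2 activation. No source used here states that the libraries came from separate mice. The tests therefore cover only how far libraries of a group differ, which may be technical. Libraries are numbered 1 to 3 within each group as in the labels, and values below are given in that order.

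KEAP1 is the adaptor that brings NRF2 to a ubiquitin ligase, so that in unstressed cells NRF2 protein is degraded soon after it is made. Electrophiles and oxidants modify cysteines of KEAP1, NRF2 then accumulates, pairs with a small MAF protein and binds antioxidant response elements near its target genes. Because this control acts largely on the protein, Nfe2l2 mRNA is only an indirect reading of the pathway, and the mRNA of the targets is the usual transcript readout. In the brain the targets are known to be used more by astrocytes than by neurons.

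No change in the NRF2 target genes with age or with quercetin was detected in these libraries. With limma on log2(FPKM + 1), where FPKM is fragments scaled by gene length and by each library's mapped total, 0 of the 10 genes passed an adjusted p of 0.05 between middle-aged and young controls, against 0.23% of all tested genes. The count was again 0 of 10 between quercetin and middle-aged controls, against 0.168%, and 0 of 10 between quercetin and young controls, against 0.0766%. Nfe2l2 itself had the lowest p of the set in the first and second of these comparisons, with a mean of 7.13 FPKM in young controls, 6.17 in middle-aged controls and 7.09 with quercetin, and neither difference passed the adjustment.

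Binding sequences for NRF2 were looked for in the promoters, from 250 bases before to 50 bases after each annotated start in RefSeq on GRCm38.p6. Windows were found for 8 of the 10 genes, 11 windows in all, and Hmox1 and Gclc had none. The core of the antioxidant response element, TGACNNNGC on either strand, lay in 4 of these windows, 1 each of Nfe2l2, Gclm, Txnrd1 and Srxn1. It lay in 12.4% of all 32851 promoter windows and in 19 of 124 windows of other genes of the pathway. Only this spelling was searched for, and only in these windows, so other forms of the element and elements farther away were not counted. The AP-1 sequence TGACTCA, bound by JUN and FOS factors and close in letters to the response element, lay at 2 places in the Srxn1 window and in 5.2% of all windows. A match is a run of letters and no evidence of binding. The stretches below carry the matches that lie before the start, in capitals, with flanks in lower case, each read 5′ to 3′ in the direction of its gene. They are shown because these genes are the ones in the set whose windows hold either of the sequences searched for. In Gclm, Txnrd1 and Srxn1 the motif is read on the opposite strand, so its reverse complement appears.
Nfe2l2 at chr2:75704885-75704913, minus strand: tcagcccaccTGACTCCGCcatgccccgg
Gclm at chr3:122245413-122245441, plus strand: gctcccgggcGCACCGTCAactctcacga
Txnrd1 at chr10:82859104-82859132, plus strand: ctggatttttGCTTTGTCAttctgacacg
Srxn1, upstream AP-1 match at chr2:152105412-152105438, plus strand: tcggagggccTGAGTCAccacgctgtg
Srxn1, downstream AP-1 match at chr2:152105469-152105495, plus strand: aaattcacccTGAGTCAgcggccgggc
The 4 genes with a match to the core of the element are described with the others below, and none of them passed the adjusted test in any comparison.

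The 10 genes covered a wide range of levels. Gstm1 was the highest, with a mean of 105 FPKM over the 9 libraries, followed by Srxn1 at 25.2, Txnrd1 at 21.2, Keap1 at 19.6, Gclc at 19.2, Gclm at 14.3, Nfe2l2 at 6.80, Slc7a11 at 5.77, Hmox1 at 2.75 and Nqo1 at 1.88. In this order the 9-library ranges of Txnrd1 and Keap1, of Keap1 and Gclc, of Nfe2l2 and Slc7a11, and of Hmox1 and Nqo1 overlapped, and the other neighbours did not. The inducible enzymes most often used as NRF2 readouts, Nqo1 and Hmox1, were thus the lowest members, at the 37.4th and 41.5th percentile of genes with values, while Gstm1 stood at the 97.3rd.

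**Figure D1:**
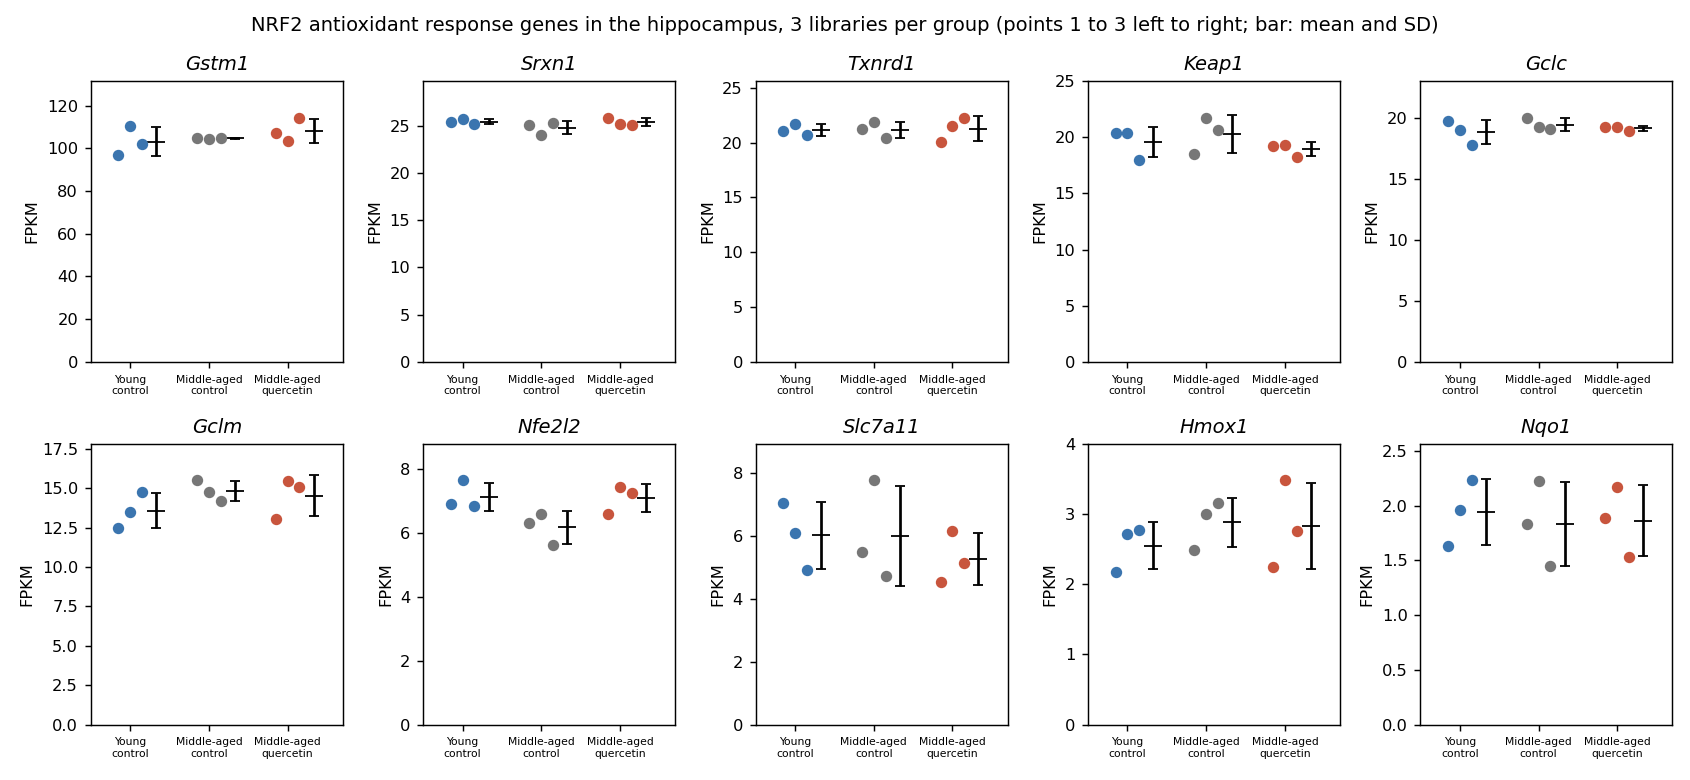
FPKM of each of the 10 genes in every library, with one panel per gene and its own vertical axis from 0; points are libraries 1 to 3 from left to right, and the bar beside them is the mean with the SD of 3 libraries. Within each panel the 3 groups lie at similar levels, and the widest scatter among libraries of a group is that of Slc7a11, Nqo1 and Hmox1.

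Nfe2l2 (gene ID 18024, chr2:75675513-75704663) encodes NRF2. Its level was 6.91, 7.64 and 6.83 FPKM in young controls, 6.30, 6.60 and 5.61 in middle-aged controls, and 6.59, 7.44 and 7.24 with quercetin. All middle-aged controls lay below all young controls, while the quercetin and middle-aged control groups overlapped by a narrow margin, quercetin 1 at 6.59 against middle-aged control 2 at 6.60. The difference of middle-aged from young controls was -0.18 on the log2(FPKM + 1) scale (SE 0.0705, 95% confidence interval -0.34 to -0.03), with an adjusted p of 0.333 in limma. The difference of quercetin from middle-aged controls was 0.18 (SE 0.0705, interval 0.02 to 0.33), with an adjusted p of 0.365. Both comparisons rest on the same 3 middle-aged controls, so the opposite signs are not separate observations. Quercetin differed from young controls by -0.01, with an adjusted p of 0.993. Nfe2l2 was the only member with an unadjusted p under 0.05, in the first and the second comparison, where 12.2% and 11.7% of all tested genes had one. No member had one between quercetin and young controls, where 6.3% of all genes did. It was also the only member whose groups did not overlap, which happened with age in 18.2% of all tested genes. No member was separated between quercetin and middle-aged controls or between quercetin and young controls, where 16.3% and 12.3% of all genes were.

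Keap1 (gene ID 50868, chr9:21229730-21239332), the inhibitor, stood at 20.34, 20.34 and 18.00 FPKM in young controls, 18.48, 21.75 and 20.65 in middle-aged controls, and 19.27, 19.32 and 18.23 with quercetin. The groups overlapped throughout, and quercetin 1 to 3 lay closer together than either control group. Quercetin differed from middle-aged controls by -0.09 (SE 0.0647, adjusted p = 0.639 in limma) and age by 0.05 (adjusted p = 0.807). Of the 50-base stretches of the longest coding Keap1 transcript, 10.4% also occur in the transcript of Gm16754, so part of its reads could be assigned to either. The ratio of Nfe2l2 to Keap1 FPKM, examined after the values had been seen and not tested, was 0.340, 0.376 and 0.379 in young controls, 0.341, 0.303 and 0.272 in middle-aged controls, and 0.342, 0.385 and 0.397 with quercetin. Every quercetin library lay above every middle-aged control, by 0.342 against 0.341 at the closest, and young control 1, at 0.340, lay just below both. Between quercetin and middle-aged controls, 16.3% of all tested genes were separated in 1 direction or the other.

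Nqo1 (gene ID 18104, chr8:107388225-107403205) encodes the quinone reductase that serves as a standard transcript readout of NRF2. Its level was 1.63, 1.96 and 2.23 FPKM in young controls, 1.83, 2.22 and 1.45 in middle-aged controls, and 1.89, 2.17 and 1.53 with quercetin. The same span was covered in all groups, with the highest value in young control 3 and the lowest in middle-aged control 3. The quercetin difference was 0.02 (SE 0.124, interval -0.26 to 0.29, adjusted p = 0.975 in limma). A pseudocount of 1 compresses changes of so low a gene, and with a pseudocount of 0.1 the 95% interval of the quercetin effect ran from 0.770-fold to 1.35-fold. Effects within these unadjusted bounds are not excluded by the data.

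Hmox1 (gene ID 15368, chr8:75093618-75100593) encodes heme oxygenase, the stress-inducible enzyme that opens the heme ring. Its level was 2.17, 2.71 and 2.77 FPKM in young controls, 2.49, 3.00 and 3.16 in middle-aged controls, and 2.25, 3.48 and 2.76 with quercetin. Quercetin 2 held the highest value of the 9 and quercetin 1 the second lowest, so the quercetin group spanned nearly the whole range. The differences were 0.13 with age (SE 0.122, adjusted p = 0.713 in limma) and -0.03 with quercetin (adjusted p = 0.955), the interval for quercetin with a pseudocount of 0.1 being 0.759-fold to 1.25-fold. Quercetin 2 was also 1 of the libraries with choroid plexus transcripts described below, and the part of these in its Hmox1 level was not tested.

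The enzyme that makes gamma-glutamylcysteine, the first and rate-limiting step of glutathione synthesis, consists of a catalytic subunit, Gclc, and a modifier subunit, Gclm. Gclc (gene ID 14629, chr9:77754535-77794489) stood at 19.76, 19.01 and 17.80 FPKM in young controls, 20.03, 19.27 and 19.06 in middle-aged controls, and 19.28, 19.30 and 18.94 with quercetin. The quercetin libraries of Gclc differed by little, with an SD of 0.202 FPKM, and lay within the range of the young controls. Gclm (gene ID 14630, chr3:122245487-122267215) stood at 12.50, 13.49 and 14.73 in young controls, 15.49, 14.78 and 14.17 in middle-aged controls, and 13.04, 15.46 and 15.07 with quercetin. Young control 1 and quercetin 1 were the low libraries of Gclm, and the groups overlapped. With age Gclc differed by 0.04 (adjusted p = 0.741 in limma) and Gclm by 0.12 (SE 0.0721, adjusted p = 0.539). With quercetin the differences were -0.02 (adjusted p = 0.903) and -0.03 (adjusted p = 0.912). The ratio of Gclc to Gclm FPKM was 1.58, 1.41 and 1.21 in young controls, 1.29, 1.30 and 1.35 in middle-aged controls, and 1.48, 1.25 and 1.26 with quercetin. Young control 1 and quercetin 1, the low libraries of Gclm, had the highest ratios, and the groups overlapped.

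Txnrd1 (gene ID 50493, chr10:82833951-82897724) encodes the cytosolic thioredoxin reductase, and Srxn1 (gene ID 76650, chr2:152105524-152111376) encodes sulfiredoxin, which restores overoxidised peroxiredoxins. Txnrd1 was at 21.04, 21.74 and 20.67 FPKM in young controls, 21.26, 21.84 and 20.39 in middle-aged controls, and 20.03, 21.49 and 22.28 with quercetin. Its group means lay at 21.2, 21.2 and 21.3, and the quercetin group held both the lowest and the highest library. Srxn1 was at 25.41, 25.76 and 25.21 in young controls, 25.12, 24.04 and 25.31 in middle-aged controls, and 25.87, 25.25 and 25.14 with quercetin. Apart from middle-aged control 2, the Srxn1 values lay close together in all groups, and the quercetin difference was 0.03 (SE 0.0364, adjusted p = 0.777 in limma). For Txnrd1 the quercetin difference was 0.01 (adjusted p = 0.979). With age the differences were 0.00 for Txnrd1 (adjusted p = 0.996) and -0.04 for Srxn1 (adjusted p = 0.742).

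Slc7a11 (gene ID 26570, chr3:50364936-50499087) encodes xCT, the light chain of the transporter that exchanges cystine for glutamate and so feeds glutathione synthesis. Its level was 7.06, 6.09 and 4.94 FPKM in young controls, 5.50, 7.78 and 4.72 in middle-aged controls, and 4.54, 6.18 and 5.15 with quercetin. The range within the middle-aged controls alone, from 4.72 to 7.78, covered nearly all of the others. The quercetin difference was -0.14 (SE 0.159, interval -0.49 to 0.21, adjusted p = 0.788 in limma), and it lay between -0.27 without middle-aged control 3 and 0.04 without middle-aged control 2, so that library sets its sign. The age difference was -0.02 (adjusted p = 0.975). Its coefficient of variation within groups, 20.8%, was at the 97.2nd percentile of the 4638 tested genes within a 2-fold range of its level. Slc7a11 is also expressed in cells of the meninges, so a list of 7 meningeal fibroblast genes, all measured and none at 0, was set beside it. Their summed FPKM was 64.7, 66.2 and 73.9 in young controls, 53.3, 80.8 and 46.1 in middle-aged controls, and 45.5, 60.5 and 55.3 with quercetin. In young control 3, the library with the most choroid plexus transcripts, Igf2 alone was at 35.87, against 6.15 to 24.82 in the others. Of the other genes there, Dcn lay between the other young controls and the rest lay below them. Among them Slc6a13, a GABA and taurine carrier of the meninges, was at 4.94, 5.23 and 2.26 in young controls, 4.05, 7.39 and 2.16 in middle-aged controls, and 1.98, 4.85 and 5.30 with quercetin. Middle-aged control 2 was the highest library in Slc7a11, in the sum and in Slc6a13. It was also the highest in Col1a1, Dcn, Lum and Col3a1, but not in Col1a2 or Igf2. Col1a2 was at 4.76 in young control 1 and 3.91 in middle-aged control 2. Slc6a13 was picked from the 7 genes without a rule set beforehand. The part of meningeal cells in the Slc7a11 level was not tested. In bulk tissue, fewer cells of a type and less RNA per cell cannot be told apart.

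**Figure D2:**
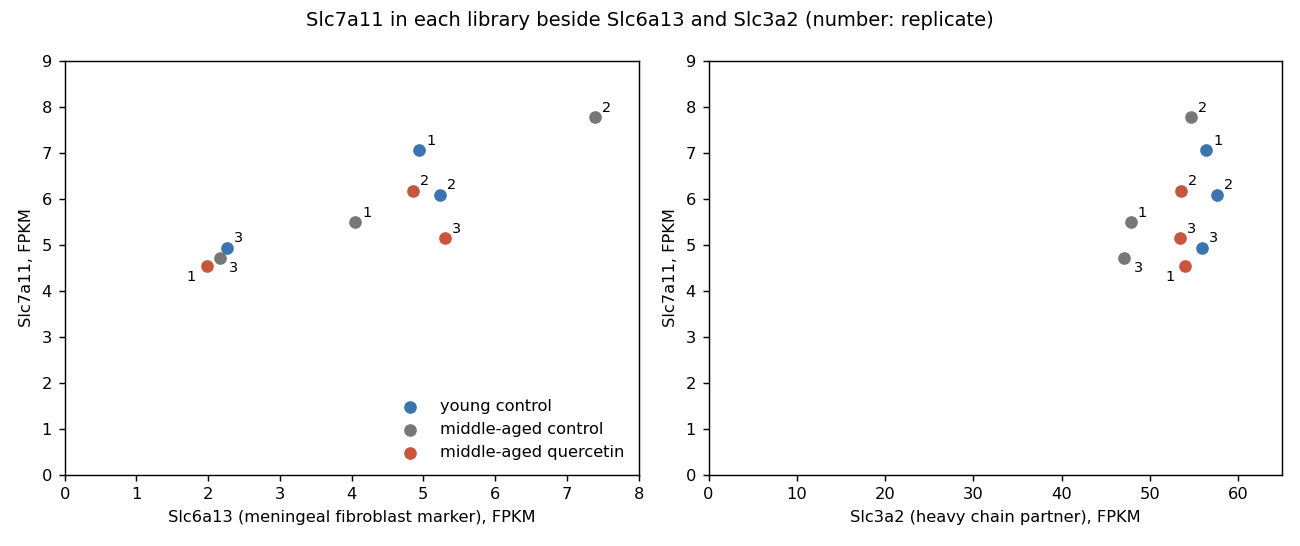
Slc7a11 FPKM (vertical axes) against the FPKM of Slc6a13, a marker of meningeal fibroblasts (left), and of Slc3a2, the heavy chain of the same transporter (right), with one point per library, numbered within its group. Middle-aged control 2 is the top point, at 7.78 FPKM of Slc7a11 and 7.39 of Slc6a13, and the Slc3a2 values of the middle-aged controls lie below those of the young controls.

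The heavy chain Slc3a2, which carries xCT and several other amino acid transporters to the membrane, is not a member and was added after its values had been seen. It stood at 56.38, 57.59 and 55.85 FPKM in young controls, 47.80, 54.63 and 47.11 in middle-aged controls, and 54.01, 53.46 and 53.39 with quercetin. Every middle-aged control was below every young control, in a comparison where the groups did not overlap for 18.2% of all tested genes. The quercetin libraries lay close together below the young controls. The age difference was -0.18 (SE 0.0511, adjusted p = 0.184 in limma), and without middle-aged control 2 it was -0.25 (SE 0.0351, adjusted p = 0.0213), so whether it passed depended on that library. The quercetin difference was 0.11, with an adjusted p of 0.458.

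Gstm1 (gene ID 14862, chr3:108012250-108017973) encodes a mu class glutathione S-transferase, which joins glutathione to electrophiles. Its level was 96.83, 110.30 and 102.12 FPKM in young controls, 104.73, 104.40 and 105.06 in middle-aged controls, and 107.13, 103.36 and 114.40 with quercetin. The 3 middle-aged controls were almost equal, with an SD of 0.330 FPKM, and lay inside the range of both other groups. The differences were 0.02 with age (adjusted p = 0.888 in limma), 0.05 with quercetin (SE 0.0512, adjusted p = 0.777) and 0.07 between quercetin and young controls (adjusted p = 0.855). Gstm1 lies in a cluster of related genes on chromosome 3, and 23.1% of the 50-base stretches of its longest coding transcript also occur in other genes, most of them in Gstm2-ps1 (17.3%), so its level is uncertain to that extent. The neighbouring mu class genes ranged from 83.93 to 98.94 FPKM for Gstm5, from 10.96 to 14.75 for Gstm7, from 5.08 to 6.97 for Gstm6, from 4.68 to 6.06 for Gstm4 and from 0.56 to 1.70 for Gstm2. None of them passed the adjusted test in any comparison. Gstm6 had 5.36, 5.80 and 5.08 FPKM in young controls, 6.03, 6.97 and 6.69 in middle-aged controls, and 6.59, 5.11 and 6.49 with quercetin. Its middle-aged controls lay above its young controls by 0.24 (SE 0.0892, adjusted p = 0.316 in limma), and quercetin 2 lay among the young controls. The control groups did not overlap, as in 18.2% of all tested genes.

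**Figure D3:**
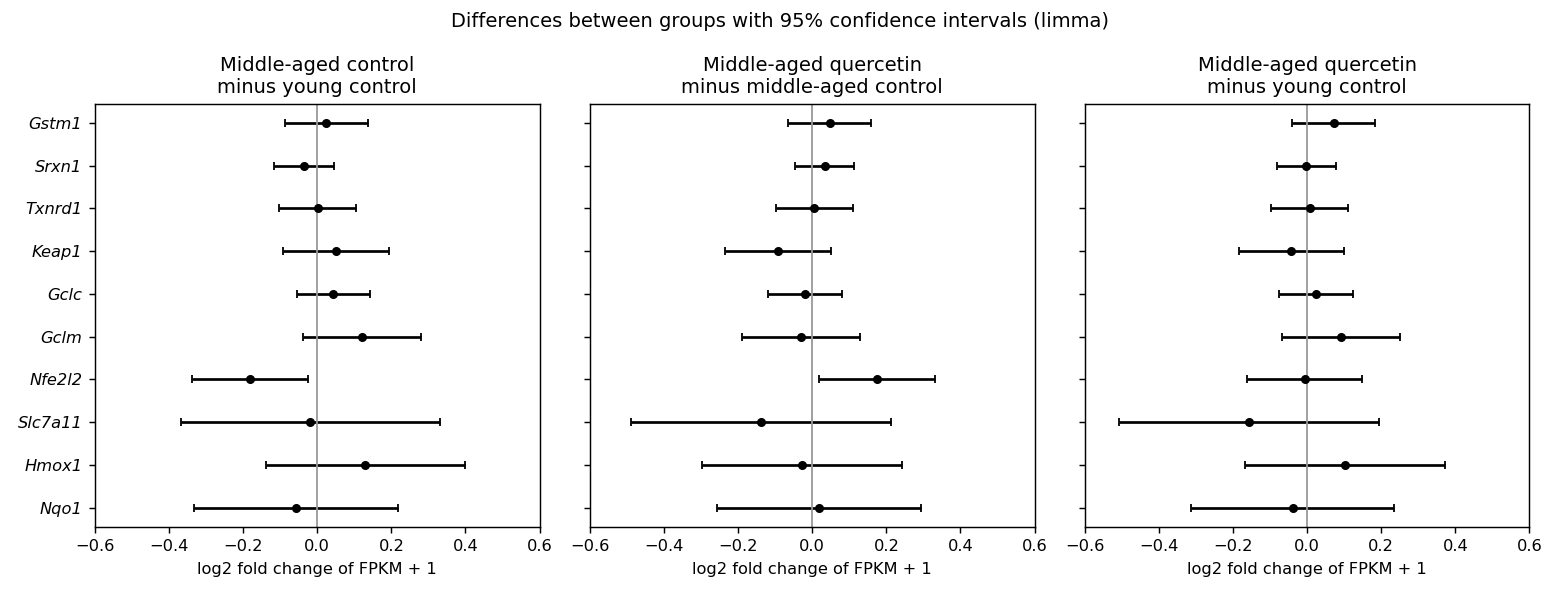
Difference in log2(FPKM + 1) between groups for each of the 10 genes (horizontal axes, log2 fold change), with points for the limma estimate and lines for its 95% confidence interval, in one panel per comparison. The intervals of Nfe2l2 leave out 0 in the first and second panel before adjustment, at -0.18 and 0.18, and the other members' intervals hold it; Slc7a11 has the widest.

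Viewed as a set, the members did not move to one side. The median difference was 0.01 with age, -0.01 with quercetin and 0.00 between quercetin and young controls, beside medians of -0.00, 0.01 and 0.00 over all tested genes. With quercetin 5 members lay above 0 and 5 below, with age 6 and 4, and between quercetin and young controls 5 and 5. The 95% interval of the fold change of FPKM + 1 with quercetin held 1 for 9 of the 10 genes, its upper ends lay between 1.04 and 1.26 and its lower ends between 0.712 and 1.01. With age it held 1 for 9 of 10, with upper ends between 0.982 and 1.32. Between quercetin and young controls it held 1 for all 10, with upper ends between 1.06 and 1.29. These are unadjusted intervals on the FPKM + 1 scale and are narrower than the change in FPKM for low genes. With a pseudocount of 0.1 they reached 1.35-fold for Nqo1 and 0.677-fold for Slc7a11 with quercetin, and 1.44-fold for Hmox1 with age.

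Ranked over the 9 libraries within each gene, the mean rank of the 10 genes, with 9 as the highest, ran from 3.9 in young control 3 to 6.5 in quercetin 2, with library 2 the highest in each group, at 6.05 in young controls, 6.1 in middle-aged controls and 6.5 with quercetin. The median log2 deviation of the 10 genes was also highest in these 3 libraries, at 0.04, 0.04 and 0.06. Each of them also had the highest median-of-ratios scaling factor of its group over the tested genes, at 1.010, 1.006 and 1.013. The part of this general shift in the ranks was not tested. The within-group coefficient of variation had a median of 6.72% over the members and 6.04% over all tested genes. Among genes of similar level Srxn1 was one of the steadiest, at 1.92% and the 2.34th percentile of 4443 genes, and Slc7a11 one of the most variable. Hmox1 at 16.4% and Nqo1 at 18.0% lay at the 81.6th and 73.7th percentile of genes near their own level.

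Beyond the 10 members, 101 other genes of the pathway were listed by function in 7 lists, of which 91 passed the filter. With age 0 of the 91 were called higher and 1 lower, with quercetin 0 in either direction, and between quercetin and young controls 0 higher and 1 lower. As shares, 1.1%, 0% and 1.1% of the 91 were called, against 0.23%, 0.168% and 0.0766% of all tested genes. At an unadjusted p under 0.05 there were 8, 5 and 7 of 91, or 8.79%, 5.49% and 7.69%, against 12.2%, 11.7% and 6.3% of all tested genes. The gene called was Nnt in both instances, the mitochondrial nicotinamide nucleotide transhydrogenase, which makes NADPH for the reduction of glutathione and thioredoxin. Nnt stood at 10.92, 11.42 and 12.18 FPKM in young controls, 5.89, 6.55 and 6.37 in middle-aged controls, and 5.88, 6.31 and 6.35 with quercetin. All 6 middle-aged libraries lay far below the young ones, and quercetin and middle-aged controls overlapped. Nnt was lower by -0.78 in middle-aged controls (SE 0.0593, adjusted p = 2.61e-04 in limma) and by -0.80 in the quercetin group (SE 0.0593, adjusted p = 2.82e-04), both against the same young libraries. Substrains of C57BL/6 are known to differ in Nnt, and the labels name no substrain. The part of substrain in this and the other differences from young controls was not tested.

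The median of each list lay near 0, with members on both sides. For the 13 regulators and partners of NRF2, among them the small MAF proteins and the repressors BACH1 and BACH2, the median difference was -0.06 with age, 0.05 with quercetin and -0.01 between quercetin and young controls. Of these 13, 9 lay below 0 with age and 10 above 0 with quercetin, 2 comparisons that share the middle-aged controls. The 13 genes of glutathione synthesis and peroxidases had medians of 0.01, -0.01 and -0.03, and the 16 glutathione S-transferases -0.00, 0.03 and 0.06. The 20 thioredoxin and peroxiredoxin genes had -0.01, 0.02 and -0.00, the 8 genes of heme and iron handling 0.05, 0.02 and 0.06, the 13 of quinone and carbonyl detoxification -0.00, -0.00 and -0.00, and the 8 of NADPH supply -0.00, 0.01 and -0.00. Over all 91 genes the medians were -0.01, 0.02 and -0.00. Single genes lay farther out, and 2 chosen for this after their values were seen are Gpx8, a peroxidase of the endoplasmic reticulum, and Gstt3, a theta class glutathione S-transferase. Gpx8 was at 3.35, 3.71 and 7.43 FPKM in young controls, 1.59, 3.24 and 1.52 in middle-aged controls, and 1.85, 3.82 and 2.72 with quercetin. Its age difference was -0.88 (SE 0.277, adjusted p = 0.239 in limma), and -0.58 (SE 0.242, adjusted p = 0.456) without young control 3, the highest library and the one with the most choroid plexus transcripts. Gstt3 was at 0.95, 0.75 and 1.03 in young controls, 1.55, 1.89 and 1.22 in middle-aged controls, and 1.17, 1.43 and 1.59 with quercetin, an age difference of 0.41 (SE 0.117, adjusted p = 0.192). Both separated young from middle-aged controls, as 9 of the 91 genes did, and neither passed the adjustment. That share is 9.89%, beside 18.2% of all tested genes.

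**Figure D4:**
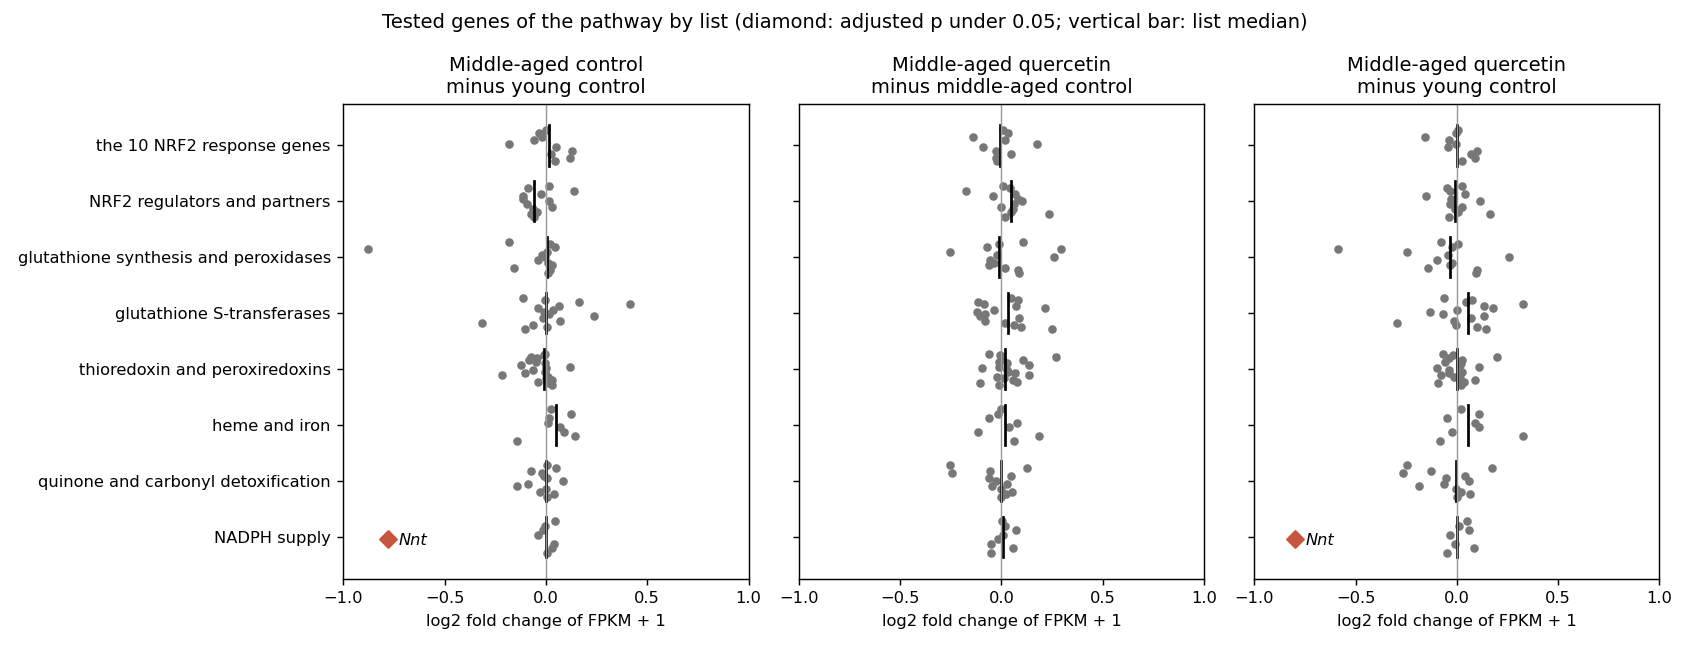
Difference in log2(FPKM + 1) between groups for the 10 NRF2 response genes and for the tested genes of the 7 other pathway lists (1 row per list, horizontal axes in log2 fold change), in one panel per comparison. Most genes lie close to 0 in every list, Gpx8 at -0.88 with age is the farthest out, and Nnt, at -0.78 and -0.80 in the row for NADPH supply, is the only gene called.

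With quercetin, where no gene of these lists was called, the 3 with the smallest p were Cbr3, Bach2 and Txnip. Cbr3, a carbonyl reductase, was at 5.17, 6.47 and 5.99 FPKM in middle-aged controls, 4.84, 4.54 and 4.97 with quercetin and 5.83, 5.86 and 6.19 in young controls. Its quercetin libraries lay below all 6 others, by -0.25 against middle-aged controls (SE 0.0735, adjusted p = 0.241 in limma). Bach2, a repressor that competes for NRF2-like sites and is best known from lymphocytes, was at 1.79, 1.92 and 1.98 in middle-aged controls, 2.41, 2.28 and 2.53 with quercetin and 1.87, 1.96 and 2.32 in young controls, a difference from middle-aged controls of 0.23 (SE 0.0805, adjusted p = 0.310). Txnip, an inhibitor of thioredoxin that is also controlled by glucose, was at 9.34, 10.71 and 10.33 in middle-aged controls and 10.91, 14.83 and 11.75 with quercetin, a difference of 0.27 (SE 0.0932, adjusted p = 0.311). The young controls of Txnip, at 11.16, 10.27 and 10.64, overlapped the quercetin group. Without quercetin 2, the Txnip difference was 0.15 (SE 0.0676, adjusted p = 0.565). The groups did not overlap for these 3 genes, but neither did they for 15 of the 91, a share of 16.5% beside 16.3% of all tested genes, and none passed the adjustment.

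The labels were checked against marker genes of the tissue. Markers of hippocampal neurons summed to between 226 and 269 FPKM in all 9 libraries. Within this list Wfs1 was at 36.99 to 39.34 in young controls and lower, at 28.28 to 32.83, in the 6 middle-aged libraries. Zbtb20 went the other way, at 11.78 to 12.19 against 12.41 to 13.68. The ages overlapped for the other genes of the list. Astrocyte markers summed to between 617 and 673 in the young controls and between 688 and 705 in the 6 middle-aged libraries, and microglia markers to between 120 and 124 against between 128 and 148, with no marker of either list at 0. Both sums thus separated the ages without overlap. Between the control groups alone, 18.2% of all tested genes did so. In the astrocyte list Gfap, Aqp4, Sox9 and Slc1a2 had higher means in middle-aged than in young controls. Aldh1l1, Slc1a3 and Gja1 had lower means. Gfap had the largest difference in FPKM, from a mean of 100 in young to 136 in middle-aged controls. The part of both sums in the age differences of the members was not tested. Choroid plexus markers summed to 2481 FPKM in young control 3 and 964 in quercetin 2, mostly Ttr, against 8.32 to 37.3 in the other 7, and no gene of this list of 10 was at 0 in any library. Red blood cell genes summed to 14.4 in young control 1 and 22.6 in quercetin 2 against 79.3 to 108 in the others. Without young control 3 and quercetin 2 together, 0 of the 10 members were called in every comparison.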

How the data were processed

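RNA-seq of hippocampus was available as 1 table for 9 libraries in 3 groups, grouped by the age and treatment in the labels. The authors deposited FPKM without read counts, so the depth of each library is unknown and no counting interval could be given. HISAT2, Bowtie2 and RESM are named in the study's methods. TopHat2, Cufflinks and build GRCm38 are named in the processing notes of the submitters. The sources used here do not give which pipeline produced the values, or whether strand was used.

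The 13062 genes that reached 1 FPKM in 3 or more libraries were fitted as log2(FPKM + 1) with limma 3.58.1 in R 4.3.3, all libraries in one fit, with a mean-variance trend. Fold changes are on this scale, which understates changes of low genes. P-values were adjusted by Benjamini-Hochberg over all tested genes at 0.05, and all tests were two-sided. The code was tested on simulated data. All 10 members were named, and of the other pathway genes those called in a comparison, else the 3 with the smallest p, and the Gstm genes. Slc3a2, Gpx8 and Gstt3 were named, and other named pathway genes refitted with libraries left out, after their values were seen. The members, lists and alternatives were chosen with earlier results of these data known. Alternatives were a pseudocount of 0.1, no low-value filter, a filter on the mean at 5 FPKM, median-of-ratios scaling, fits of the 6 libraries compared, a replicate block, and libraries left out. Shared sequence was counted over 50-base stretches of GENCODE M21 transcripts. Gene positions, promoters and their sequences are from RefSeq, GRCm38.p6. Figures were drawn with matplotlib 3.10.9.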

Additional observations from a re-analysis of the deposited data

How the results depend on the processing

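The call for the members did not depend on these choices. Of 474 values of the 10 members under 16 alternatives, 0 passed the adjusted test, 42 had the other sign and the smallest adjusted p in limma was 0.257, for Nfe2l2 with age without middle-aged control 2. Nfe2l2 stayed between -0.22 and -0.12 with age and between 0.12 and 0.22 with quercetin. Nqo1 and Hmox1 were not tested at a mean of at least 5 FPKM. The count over all genes was 30 with age, 22 with quercetin and 10 between quercetin and young controls. It was 17, 1 and 4 without a filter, 66 with age at a mean of at least 5 FPKM, 14 with quercetin and 4 against young in fits of 6 libraries, and 9, 1 and 4 without young control 3 and quercetin 2. Leaving out 1 library gave 11 to 45, 0 to 29 and 4 to 7, the 0 without middle-aged control 1. The cause was not tested. Other pathway genes called with age were 1 to 2 when 1 library was left out, Slc3a2 being added without middle-aged control 2. The Nnt values, added to these alternatives after seeing the data, passed in 16 of 16 in both comparisons with young controls, from -0.87 to -0.74 with age and from -0.89 to -0.76 between quercetin and young controls. With a replicate block the counts over all genes were 20, 13 and 6, and 0 members were called. Over all tested genes, same-numbered libraries deviated together no more than others did (r from -0.198 to 0.118, 1 of 9 pairs above 0.1). For different numbers r ran from -0.203 to 0.282, so the numbers were not taken as pairs. For the members alone, library 2 had the highest mean rank in each group, as described above. FPKM without counts leaves the precision of low genes such as Nqo1 to the 3 libraries a group alone.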
